A study of Homo sapiens with 12 samples.

Results

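Expression of the epidermal growth factor receptor (EGFR) family, its ligands and the feedback inhibitor ERRFI1 was examined in lines of pancreatic ductal adenocarcinoma (PDAC) in which hairpins reduced focal adhesion kinase (FAK). The members were every probe that the deposited array table assigns to the receptors EGFR, ERBB2 and ERBB3, the ligands AREG, EREG, HBEGF and TGFA, and ERRFI1. These were 8 of the 34599 gene names in the table. They had 16 of its 47228 gene probes, and 11 of the 16, from 7 of the 8 genes, passed the detection filter that left 24207 probes for testing.

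The EGFR family is a group of receptor tyrosine kinases at the cell surface that pair with each other when a ligand binds and then signal through ERK and PI3K. ERBB2 has no known ligand of its own and ERBB3 has little kinase activity, so both act mainly as partners of other receptors. The ligands are made as membrane-bound precursors, and proteases release them from the cell surface. FAK carries signals from integrins into some of the same pathways.

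Capan-1 and MIA PaCa-2 are established lines from human pancreatic tumors, and their RNA was hybridized to Illumina HumanHT-12 v4 arrays. Each line carried shCtrl, the control hairpin, or a hairpin against FAK, either sh1209 or sh1319, the latter named shFAK1319 in the Capan-1 labels. All 6 groups, shCtrl included, were stable lines selected with puromycin (in MIA PaCa-2 at 3.5 ug/ml, in Capan-1 at 1.5 ug/ml) that carried a Tet-inducible hairpin vector, and all received 50 ng/ml doxycycline for 96 hours. Each group had 2 arrays, 12 in all on 1 chip, made from 500 ng of RNA. The sources used here do not say whether a group's 2 arrays were made from different cultures, so the p-values measure the spread between these arrays, which may be technical, and they do not cover differences between independently made lines. In bulk RNA, fewer cells of a type and less RNA per cell cannot be told apart.

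The median intensity of an array was 87.7 to 97.0, and 16259 to 19814 of the gene probes were detected. FAK is encoded by PTK2, whose probe 450253 had intensities of 773.3 and 708.0 with shCtrl, 191.8 and 211.8 with sh1209, and 175.1 and 219.1 with sh1319 in MIA PaCa-2. In Capan-1 the values were 1220.5 and 1178.1 with shCtrl, 820.9 and 1057.2 with sh1209, and 419.6 and 532.8 with sh1319. At this probe both hairpins lay below shCtrl in both lines, and in Capan-1 sh1209 left 65.4% of the shCtrl signal against 29.2% with sh1319. The call for sh1209 in Capan-1 (log2 change -0.61, limma, adjusted p = 0.0036) was lost when arrays were scaled to the same median (-0.42, limma, adjusted p = 0.23). The dimmer PTK2 probe 2680750 passed in none of these 4 comparisons. Its intensities in MIA PaCa-2 were 102.5 and 100.6 with shCtrl, 104.1 and 109.4 with sh1209, which lay above shCtrl, and 100.8 and 98.6 with sh1319. Its log2 changes were 0.31 and -0.29 in MIA PaCa-2, while those in Capan-1 were -0.46 and -0.46. Of the ductal epithelial markers KRT7, KRT8, KRT18, KRT19, EPCAM and CDH1, all 6 were detected in every Capan-1 array. In MIA PaCa-2, KRT8 and KRT18 were detected in 6 of 6 arrays, KRT19 in 4, KRT7 and EPCAM in 2 and CDH1 in 0. Of the 4 mesenchymal markers, VIM lay between 8839.0 and 11673.9 in MIA PaCa-2 and between 119.8 and 174.9 in Capan-1, CDH2 was detected in 0 arrays of MIA PaCa-2 and in 6 of Capan-1 (127.2 to 273.3), FN1 in 2 and 0, and ZEB1 in 0 of either. Of the leukocyte markers, CD68 was detected in 12 of 12 arrays (265.1 to 507.5 in MIA PaCa-2, 533.8 to 882.1 in Capan-1), CD14 in 6, and PTPRC and CD3E in 1 each. Of the endothelial markers, PECAM1 was detected in 7 arrays, VWF in 2 and CDH5 in 0, and of the fibroblast markers LUM in 2, DCN in 1 and PDGFRB in 0. Apart from CD68, these leukocyte, endothelial and fibroblast markers lay between 76.4 and 129.8.

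The windows of 250 bases upstream of the start sites of 5 members are given because EREG and AREG are neighbors with different detection, and because EGFR, HBEGF and ERRFI1 held the largest changes among the knock down comparisons. They are RefSeq sequences of GRCh38.p14, written 5′ to 3′ on the strand of the gene, and lie at chr4:74364895-74365144 (plus strand) for EREG, chr4:74444886-74445135 (plus strand) for AREG, chr5:140346604-140346853 (minus strand) for HBEGF, chr7:55018767-55019016 (plus strand) for EGFR and chr1:8026310-8026559 (minus strand) for ERRFI1. Capitals mark matches, on either strand, to the letters searched for AP-1 (TGANTCA), CRE (TGACGTCA), TEAD (GGAATG), ETS (CCGGAA) and a TATA box (TATAAA).
EREG: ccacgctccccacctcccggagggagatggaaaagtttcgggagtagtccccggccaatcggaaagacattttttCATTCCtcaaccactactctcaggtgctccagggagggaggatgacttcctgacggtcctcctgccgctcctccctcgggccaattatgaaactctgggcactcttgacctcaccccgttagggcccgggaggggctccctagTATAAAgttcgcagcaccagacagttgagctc
AREG: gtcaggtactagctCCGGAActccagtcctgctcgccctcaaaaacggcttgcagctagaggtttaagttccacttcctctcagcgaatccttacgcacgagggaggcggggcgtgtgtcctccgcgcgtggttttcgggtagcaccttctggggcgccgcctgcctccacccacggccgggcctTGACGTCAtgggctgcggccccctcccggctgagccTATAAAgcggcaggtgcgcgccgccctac
HBEGF: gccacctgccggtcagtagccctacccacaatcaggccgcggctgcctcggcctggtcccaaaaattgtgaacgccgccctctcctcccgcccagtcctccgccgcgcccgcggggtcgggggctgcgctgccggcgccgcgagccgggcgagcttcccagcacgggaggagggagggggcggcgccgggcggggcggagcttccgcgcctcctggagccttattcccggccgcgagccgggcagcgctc
EGFR: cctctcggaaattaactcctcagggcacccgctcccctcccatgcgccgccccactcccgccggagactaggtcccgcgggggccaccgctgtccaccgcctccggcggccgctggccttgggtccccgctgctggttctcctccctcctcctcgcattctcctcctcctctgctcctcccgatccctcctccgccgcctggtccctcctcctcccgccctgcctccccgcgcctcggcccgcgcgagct
ERRFI1: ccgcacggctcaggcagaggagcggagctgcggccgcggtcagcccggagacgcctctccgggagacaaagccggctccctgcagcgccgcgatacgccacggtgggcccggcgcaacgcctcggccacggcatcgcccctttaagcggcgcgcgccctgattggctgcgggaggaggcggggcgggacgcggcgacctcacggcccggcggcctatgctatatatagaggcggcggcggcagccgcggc
The EREG window held the TEAD letters 175 bases and the TATA letters 32 bases before the start. The AREG window held the CRE letters 65, the ETS letters 236 and the TATA letters 29 bases before the start. None of these letters was found in the HBEGF, ERRFI1 and EGFR windows shown. The window of a second EGFR start, inside the gene, held the AP-1 letters 232 and 136, the TEAD letters 114 and the TATA letters 146 and 36 bases before that start. Among 35116 windows of all genes, 6.57% held the AP-1, 1.65% the CRE, 11.9% the TEAD, 14.5% the ETS and 10.7% the TATA letters. A match describes the sequence and is not evidence that a factor binds there. The EREG gene (chr4:74365145-74388749) and the AREG gene (chr4:74445136-74455005) are 56386 bases apart with no RefSeq gene wholly between them.

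Detection differed among the probes of a gene and between the lines. Of the 4 EGFR probes, 1050671 was detected in 12 and 6330307 in 11 of 12 arrays, while 4070019 and 3390538 were detected in 0. Of the 3 ERBB2 probes, 4050156 was detected in 12 arrays and 1070673 and 940592 in 0. The ERBB3 probes 4560288, 3120608 and 4260482 were detected in 1, 2 and 0 arrays of MIA PaCa-2 and in 6, 6 and 5 arrays of Capan-1. Both TGFA probes, 360377 and 3420296, were detected in all 6 Capan-1 arrays and in 0 MIA PaCa-2 arrays. EREG, HBEGF and ERRFI1 were detected in 12 of 12 arrays. AREG, which encodes amphiregulin, had intensities of 76.1 to 88.3 and was detected in 0 arrays, as was the probe listed as AREGB, now a synonym of AREG. AREG and the other 4 probes detected in 0 arrays were not tested, so no change in AREG could be measured at this signal. The files do not give where in its transcript a probe lies.

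**Figure D1:**
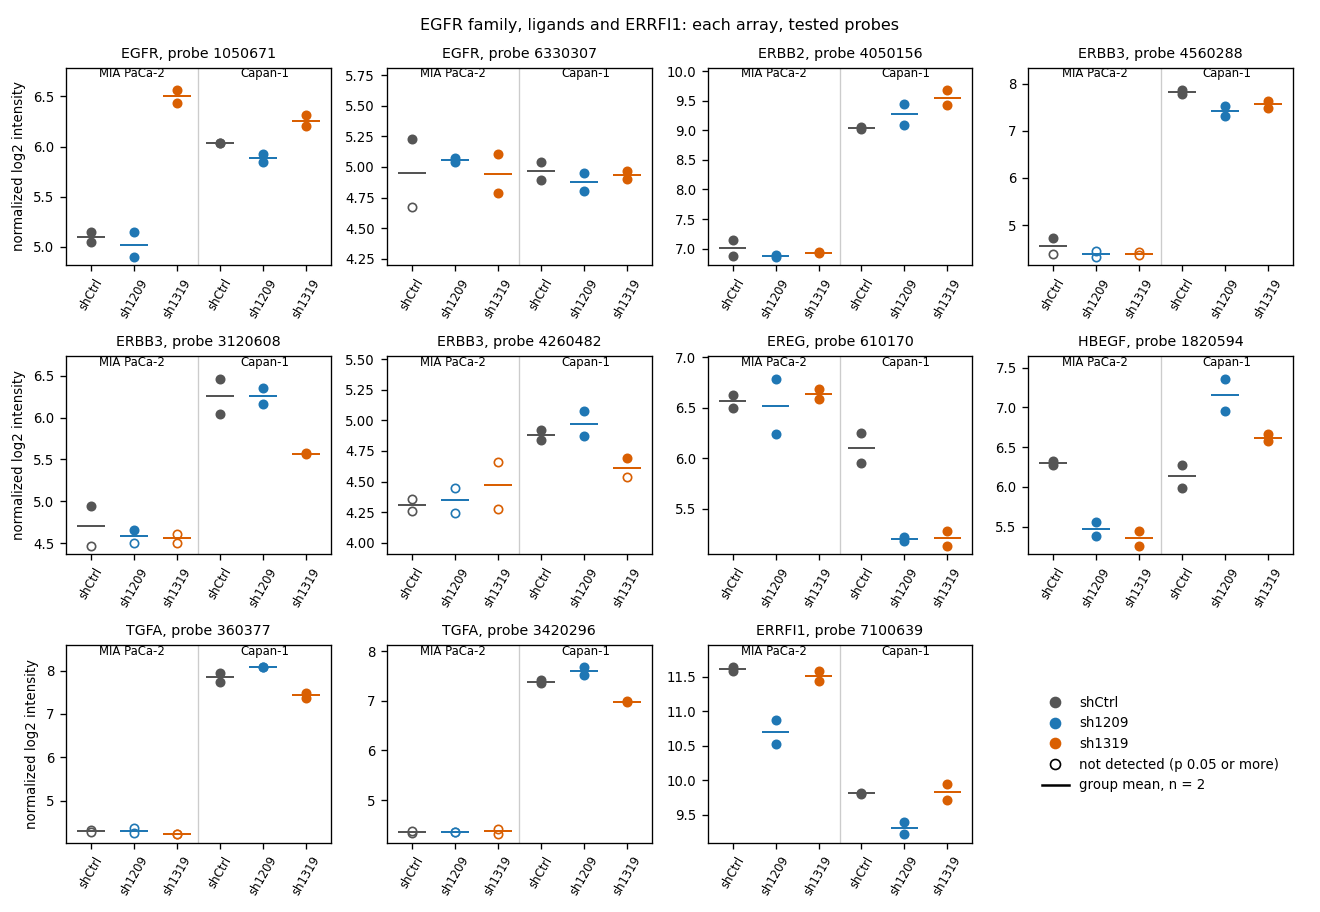
Normalized log2 intensity (y axis, a separate range for each panel) of the 11 tested probes in each of the 12 arrays, by cell line and hairpin. Points are arrays, open where the probe was not detected (detection p of 0.05 or more), and bars are means of 2 arrays. In Capan-1, EREG lay between 5.14 and 5.28 with the FAK hairpins and between 5.96 and 6.25 with shCtrl, HBEGF lay below shCtrl in MIA PaCa-2 and above it in Capan-1, and TGFA was not detected in MIA PaCa-2.

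The lines were first compared with the control hairpin, which shows the state of the family before FAK was reduced. Capan-1 had more signal for all 3 receptors and TGFA, and less for ERRFI1. Of the 11 tested probes, 9 differed at an adjusted p under 0.05 (limma, Benjamini-Hochberg), 7 higher and 2 lower in Capan-1. Of all tested probes 42.1% differed, 19.6% higher and 22.5% lower. ERBB3 probes 4560288 and 4260482 and both TGFA probes met the detection filter only through Capan-1 arrays. Their direction was thus favored by the filter, and the count of 7 higher is no separate support for a higher family signal in Capan-1. ERBB2 probe 4050156 had intensities of 547.8 and 582.3 in Capan-1 against 175.3 and 188.9 in MIA PaCa-2, and the groups did not overlap. Its normalized log2 difference was 2.03 ± 0.15 (SE), or 4.07-fold (limma, adjusted p = 4.2e-07). ERBB3 probe 4560288 had 270.6 and 307.9 in Capan-1 against 88.3 and 97.5 in MIA PaCa-2, where only 1 of these 2 arrays detected it. It was 9.69-fold higher in Capan-1 (limma, adjusted p = 2.7e-09), and ERBB3 probe 3120608, also detected in 1 of the 2 MIA PaCa-2 arrays, was 2.93-fold higher (limma, adjusted p = 1.7e-05). ERBB3 probe 4260482, near the background, was at least 1.13-fold higher, and this call was lost without shCtrl replicate 2 of Capan-1 (log2 difference 0.53, limma, adjusted p = 0.052).

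EGFR probe 1050671 had intensities of 131.9 and 140.8 in Capan-1 and 102.2 and 102.4 in MIA PaCa-2. It was 1.92-fold higher in Capan-1 (limma, adjusted p = 5.6e-05), while EGFR probe 6330307 did not pass (log2 difference 0.02, 95% interval -0.36 to 0.40). TGFA encodes transforming growth factor alpha, a high-affinity ligand of EGFR. TGFA probe 360377 had 265.7 and 320.1 in Capan-1 and was not well above background in any MIA PaCa-2 array, which makes it at least 8.80-fold higher (limma, adjusted p = 2.9e-10). Probe 3420296 was at least 6.37-fold higher (limma, adjusted p = 7.2e-10). These bounds set the Capan-1 mean against the lowest signal among the detected probes of each MIA PaCa-2 array. ERRFI1 encodes a cytoplasmic protein that binds active EGFR and inhibits it. Its intensities were 3370.8 and 3237.4 in MIA PaCa-2 against 874.3 and 934.4 in Capan-1, 3.48-fold lower in the latter (limma, adjusted p = 8.0e-07). For HBEGF the groups overlapped and the log2 difference was -0.17 (95% interval -0.52 to 0.17, limma, adjusted p = 0.42). EREG was 1.38-fold lower in Capan-1 (limma, adjusted p = 0.048), a call that was lost without any 1 of 9 of the 12 arrays (log2 difference -0.61 to -0.32 over the arrays left out) and with arrays scaled to the same median instead of quantile-normalized (median scaling, -0.23, limma, adjusted p = 0.52). Without background correction the log2 differences were smaller, at 0.37 for EGFR probe 1050671, 1.67 for ERBB3 probe 4560288 and 1.78 for TGFA probe 360377, and all 9 calls were kept. The lines also differed in the epithelial and mesenchymal markers given above, and the part of that state in these differences was not tested.

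**Figure D2:**
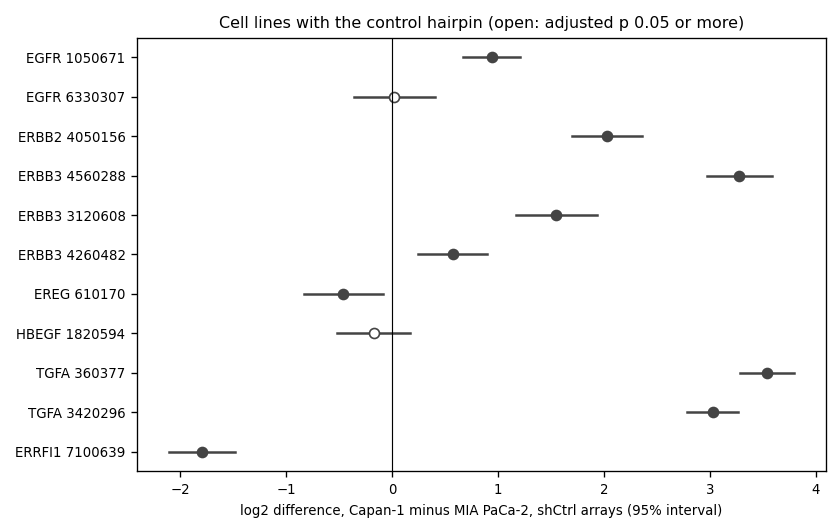
Log2 difference between the shCtrl arrays of Capan-1 and MIA PaCa-2 (x axis, positive where Capan-1 was higher) for each tested probe (y axis), with 95% intervals from limma and n = 2 arrays per line. Filled points passed an adjusted p of 0.05. ERBB3 4560288 and both TGFA probes lay above 3, and ERRFI1 lay at -1.80.

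The next comparisons asked what each hairpin did in each line. Of the 11 probes, 2 passed with sh1209 in MIA PaCa-2 (18% of all tested probes passed there), 2 with sh1319 in that line (24.3%), 3 with sh1209 in Capan-1 (16.8%) and 5 with sh1319 in Capan-1 (13.7%). The median log2 change of the 11 was -0.07, -0.08, 0.00 and -0.26 in this order, and that of all tested probes was 0.01, -0.01, -0.01 and 0.00. The count of 5 became 2 with median scaling, where 9.38% of all probes passed, and between 0 and 6 when 1 array was left out, 0 without shCtrl replicate 1 of Capan-1. It was 2 without shCtrl replicate 2 and 1 without either sh1319 array. The 2 that passed with median scaling were EREG, which was among the 5, and HBEGF, which was not. The arrays of a hairpin and of shCtrl did not overlap in 54.2%, 56.9%, 55.5% and 53.9% of all tested probes, so that groups that do not overlap are common here. The comparisons of sh1209 and sh1319 within a line share the shCtrl arrays and are not independent of each other.

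Among the receptors, EGFR rose with 1 hairpin in 1 line. In MIA PaCa-2, EGFR probe 1050671 had intensities of 102.2 and 102.4 with shCtrl, 94.8 and 107.5 with sh1209, and 145.0 and 178.6 with sh1319. The sh1319 arrays lay above all the others and those of sh1209 overlapped shCtrl. EGFR rose with sh1319 by 1.40 ± 0.12 (SE) on the log2 scale, or 2.64-fold (limma, adjusted p = 7.8e-06), and this call was kept with every array left out and in every refit (other background, scaling, filter, block, array weight or single-line settings). With sh1209 the log2 change was -0.07 (95% interval -0.34 to 0.19), and the hairpins differed by 1.48 (limma, adjusted p = 6.2e-06), where 22.6% of all probes differed between the hairpins. In Capan-1, EGFR had 131.9 and 140.8 with shCtrl, 130.0 and 158.8 with sh1209, and 151.7 and 186.9 with sh1319. The log2 change was -0.15 with sh1209 (95% interval -0.42 to 0.12) and 0.22 with sh1319 (-0.05 to 0.49), neither past the threshold. The change with sh1319 differed between the lines by 1.18 (limma, adjusted p = 9.9e-04), a difference of MIA PaCa-2 minus Capan-1 that 14% of all probes showed in some direction. EGFR probe 6330307 had intensities of 94.4 to 112.8 in all arrays and changed by 0.00 with sh1319 in MIA PaCa-2 (95% interval -0.38 to 0.38), so that the rise was measured by 1 of the 2 tested EGFR probes. Without background correction the rise was 0.61 on the log2 scale.

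Of the 4 hairpin and line pairs, ERBB2 and ERBB3 passed only for sh1319 in Capan-1, at 1 probe each, and both calls were lost in some settings. ERBB2 probe 4050156 in Capan-1 had 547.8 and 582.3 with shCtrl, 580.3 and 941.5 with sh1209, and 721.6 and 1061.3 with sh1319. The sh1319 arrays lay above both shCtrl arrays, and ERBB2 rose by 0.52 ± 0.15 (SE), or 1.43-fold (limma, adjusted p = 0.041). The call was lost without any 1 of 8 of the 12 arrays (0.38 to 0.65 over the arrays left out), namely both sh1209 and both sh1319 arrays of MIA PaCa-2 and both shCtrl and both sh1319 arrays of Capan-1, and with median scaling (0.66, limma, adjusted p = 0.062). In MIA PaCa-2 the log2 change of ERBB2 was -0.14 with sh1209 and -0.08 with sh1319. ERBB3 probe 3120608 in Capan-1 had 153.0 and 141.2 with shCtrl, 153.1 and 173.5 with sh1209, and 124.3 and 141.0 with sh1319, so that 1 sh1319 array lay next to a shCtrl array before normalization. It fell by 0.69 with sh1319 (limma, adjusted p = 0.023), but not past the threshold without shCtrl replicate 1 (-0.48), sh1319 replicate 1 (-0.69) or sh1319 replicate 2 (-0.68) of Capan-1, or with median scaling (-0.42, limma, adjusted p = 0.22). The brighter ERBB3 probe 4560288 had a log2 change of -0.40 with sh1209 (95% interval -0.70 to -0.10) and -0.26 with sh1319 (-0.57 to 0.04), neither past the threshold, although the change with sh1209 passed without background correction (-0.29, limma, adjusted p = 0.0066). ERBB3 probe 4260482 changed by 0.09 and -0.27 in Capan-1 without passing.

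Among the ligands, HBEGF changed in opposite directions in the lines. HBEGF encodes heparin-binding EGF-like growth factor, which binds EGFR and also ERBB4. In MIA PaCa-2 its intensities were 141.4 and 135.8 with shCtrl, 102.5 and 118.3 with sh1209, and 109.4 and 114.8 with sh1319. All 4 arrays with a FAK hairpin lay below both shCtrl arrays. HBEGF fell by 0.83 ± 0.16 (SE) with sh1209, 1.78-fold (limma, adjusted p = 0.0033), and by 0.95 ± 0.16 with sh1319, 1.94-fold (limma, adjusted p = 8.5e-04). The hairpins did not differ detectably from each other there (-0.12, 95% interval -0.47 to 0.22). In Capan-1 the intensities were 143.5 and 138.5 with shCtrl, 196.8 and 300.8 with sh1209, and 179.2 and 208.5 with sh1319. All 4 arrays with a FAK hairpin lay above both shCtrl arrays. HBEGF rose with sh1209 by 1.03 ± 0.16, or 2.04-fold (limma, adjusted p = 9.9e-04), and with sh1319 the log2 change was 0.49 (95% interval 0.15 to 0.83, limma, adjusted p = 0.061), past the threshold with median scaling (0.73, limma, adjusted p = 0.030). The calls of HBEGF with both hairpins in MIA PaCa-2 and with sh1209 in Capan-1 were kept with every array left out and in every such refit. Without background correction the log2 changes of HBEGF were smaller, -0.37 and -0.42 in MIA PaCa-2 and 0.60 with sh1209 in Capan-1.

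EREG fell in Capan-1 and not detectably in MIA PaCa-2. EREG encodes epiregulin, a low-affinity ligand of EGFR and ERBB4 and the neighbor of AREG on chromosome 4. In Capan-1 its intensities were 142.0 and 137.3 with shCtrl, 108.3 and 121.9 with sh1209, and 114.5 and 121.5 with sh1319. All 4 arrays with a FAK hairpin lay below both shCtrl arrays. EREG fell by 0.90 ± 0.17 (SE) with sh1209, 1.87-fold (limma, adjusted p = 0.0040), and by 0.89 ± 0.17 with sh1319, 1.86-fold (limma, adjusted p = 0.0051). The fall with sh1209 was kept with every array left out, and that with sh1319 was lost without shCtrl replicate 1 of Capan-1 (-0.75, limma, adjusted p = 0.055). Without background correction both changes were -0.37 and passed. In MIA PaCa-2 the intensities were 158.3 and 146.0 with shCtrl, 128.4 and 180.1 with sh1209, and 153.6 and 188.3 with sh1319, and the groups overlapped. The log2 change was -0.05 with sh1209 (95% interval -0.42 to 0.33) and 0.07 with sh1319 (-0.30 to 0.45).

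TGFA was measured only where it was detected, in Capan-1. Probe 360377 had intensities of 265.7 and 320.1 with shCtrl, 334.8 and 429.9 with sh1209, and 243.2 and 319.0 with sh1319. Before normalization the sh1319 and shCtrl arrays overlapped. After quantile normalization TGFA fell with sh1319 by 0.41 at this probe (limma, adjusted p = 0.035) and by 0.40 at probe 3420296 (limma, adjusted p = 0.034). Both calls were lost with median scaling (-0.15 and -0.13, limma, adjusted p = 0.76 and 0.81), and without any 1 of the shCtrl and sh1319 arrays of Capan-1 (-0.52 to -0.31 and -0.43 to -0.37). With sh1209 the log2 change was 0.23 at probe 360377 (95% interval -0.03 to 0.48) and 0.21 at probe 3420296 (-0.03 to 0.46). The hairpins differed in TGFA by -0.64 and -0.61, sh1319 minus sh1209 (limma, adjusted p = 0.0043 and 0.0042), which was kept with every array left out but not with median scaling (-0.60 and -0.57, limma, adjusted p = 0.096 and 0.12). Over the 12 arrays, with the mean of each line subtracted, the TGFA probes correlated at r = 0.94, a description of probes that share the same arrays. Because 0 MIA PaCa-2 arrays detected either probe, the part of those arrays in r is background signal.

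ERRFI1, the inhibitor, fell with sh1209 and not detectably with sh1319. In MIA PaCa-2 its intensities were 3370.8 and 3237.4 with shCtrl, 1678.9 and 1624.9 with sh1209, and 2827.9 and 3820.0 with sh1319. The sh1209 arrays lay below both shCtrl arrays and those of sh1319 lay on either side of shCtrl. ERRFI1 fell by 0.91 ± 0.14 (SE) with sh1209, 1.88-fold (limma, adjusted p = 0.0010), a call kept with every array left out and in every such refit, while with sh1319 the log2 change was -0.10 (95% interval -0.41 to 0.21). The hairpins differed by 0.81, sh1319 minus sh1209 (limma, adjusted p = 0.0015). In Capan-1 the intensities were 874.3 and 934.4 with shCtrl, 701.3 and 816.3 with sh1209, and 987.8 and 1075.6 with sh1319. ERRFI1 fell with sh1209 by 0.51 there (limma, adjusted p = 0.031), but the call was lost without any 1 of the shCtrl and sh1209 arrays of Capan-1 (-0.59 to -0.42) and with median scaling (-0.31, limma, adjusted p = 0.40). With sh1319 the log2 change in Capan-1 was 0.02 (95% interval -0.30 to 0.33).

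**Figure D3:**
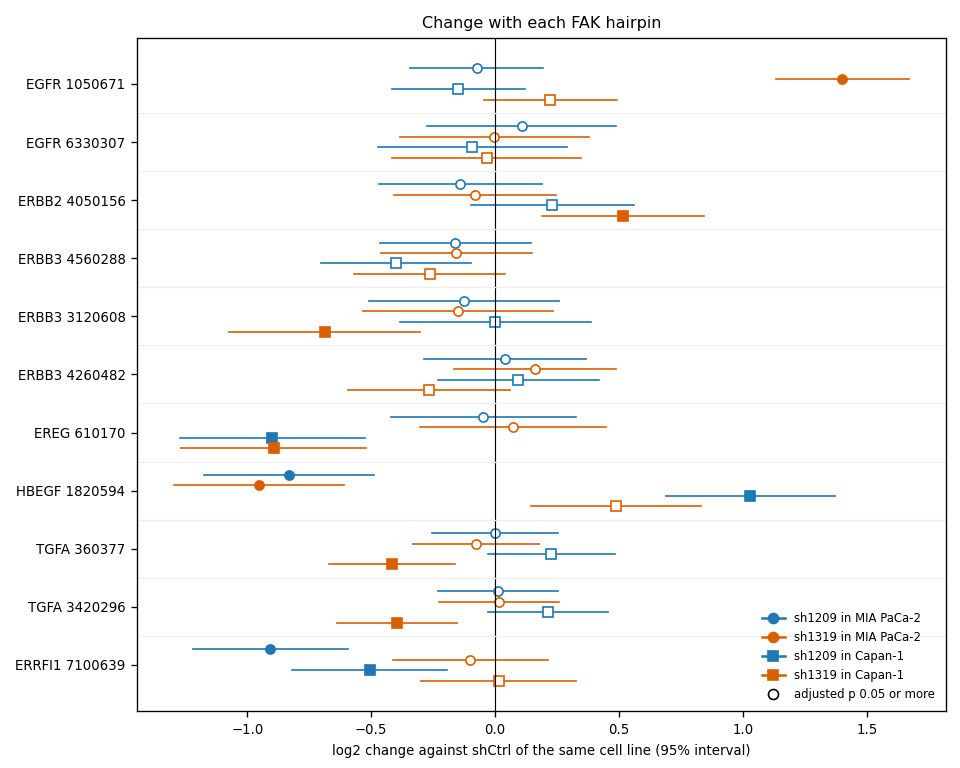
Log2 change of each tested probe (y axis) against shCtrl of the same cell line (x axis) with sh1209 (blue) and sh1319 (orange) in MIA PaCa-2 (circles) and Capan-1 (squares), with 95% intervals from limma and n = 2 arrays per group. Filled symbols passed an adjusted p of 0.05. HBEGF lay on opposite sides of 0 in the lines, EREG lay near -0.90 in Capan-1, and EGFR 1050671 stood at 1.40 with sh1319 in MIA PaCa-2.

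The hairpins also differed from each other in Capan-1, where 11.3% of all tested probes did and 5 of the 11 member probes did. Besides both TGFA probes, these were ERBB3 probe 3120608 (-0.69, limma, adjusted p = 0.027), HBEGF (-0.54, limma, adjusted p = 0.046) and ERRFI1 (0.52, limma, adjusted p = 0.036), each as sh1319 minus sh1209. Of the 5, 0 passed with median scaling, where 5.03% of all probes passed. ERBB3 did not pass without any 1 of the sh1209 and sh1319 arrays of Capan-1 (-0.78 to -0.59), ERRFI1 not without any 1 of the 6 arrays of Capan-1 (0.41 to 0.64), and HBEGF not without any 1 of 9 of the 12 arrays (-0.74 to -0.34 over the arrays left out). Among the members only EGFR and ERRFI1, given above, differed between the hairpins in MIA PaCa-2. PTK2 also differed between the hairpins in Capan-1 at probe 450253 (the signal left, given above) and not detectably at probe 2680750 (0.00, 95% interval -0.36 to 0.36). In MIA PaCa-2 PTK2 did not differ detectably at probe 450253 (-0.24, limma, adjusted p = 0.17). There it differed at the dim probe 2680750 (-0.59, limma, adjusted p = 0.021), a call lost with median scaling. Whether the differences in members follow from PTK2 was not tested.

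Averaged over both hairpins and both lines, 3 of the 11 probes passed, 1 higher and 2 lower. Of all tested probes 25.2% passed, 12.5% higher and 12.7% lower. EGFR probe 1050671 rose by 0.35 (limma, adjusted p = 0.0050), EREG fell by 0.44 (limma, adjusted p = 0.0089) and ERRFI1 fell by 0.37 (limma, adjusted p = 0.0082). None of the 3 changed past the threshold in all 4 hairpin and line pairs. EREG and ERRFI1 did not pass with median scaling (-0.29 and -0.30, limma, adjusted p = 0.15 and 0.096), where 17.5% of all probes passed, and EREG did not pass without shCtrl replicate 1 of Capan-1 (-0.37, limma, adjusted p = 0.054). With the replicates of a group averaged before the fit, 0 of the 24207 tested probes passed (limma, 1975 had an unadjusted p under 0.05), these 3 included. That fit took both hairpins of a line as its replicates, so its spread was the difference between the hairpins and not between arrays. Without shCtrl replicate 1 of MIA PaCa-2, 5 member probes passed. HBEGF, with its opposite changes, averaged -0.07 (95% interval -0.28 to 0.14).

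Whether the lines responded differently was tested as the mean change over both hairpins in MIA PaCa-2 minus that in Capan-1. It differed for 3 of the 11 probes, where 14.4% of all tested probes differed. For HBEGF the mean change was 0.76 in Capan-1 and -0.89 in MIA PaCa-2, a difference of -1.65 ± 0.19 (SE) (limma, adjusted p = 1.7e-04), and it was kept with every array left out and with median scaling (-1.79, limma, adjusted p = 9.6e-06). It did not pass with the replicates of a group averaged before the fit (limma, adjusted p = 0.99), nor did any of the 24207 tested probes (1087 had an unadjusted p under 0.05). The spread in that fit was the difference between the hairpins of a line and not between arrays. The difference for HBEGF also passed for each hairpin alone, at -1.86 with sh1209 (limma, adjusted p = 1.8e-04, 14.8% of all probes) and -1.44 with sh1319 (limma, adjusted p = 0.0013). For EREG the difference was 0.91 ± 0.21 (limma, adjusted p = 0.013), with a mean change of -0.90 in Capan-1. It did not pass without shCtrl replicate 2 of MIA PaCa-2 (0.84) or shCtrl replicate 1 of Capan-1 (0.76), or with median scaling (0.83, limma, adjusted p = 0.058). For EGFR probe 1050671 it was 0.63 ± 0.15 (limma, adjusted p = 0.017), did not pass without shCtrl replicate 2 of MIA PaCa-2 (0.58) or shCtrl replicate 1 or 2 of Capan-1 (0.63 and 0.63), and was 0.44 with median scaling (limma, adjusted p = 0.40). The EGFR difference was 1.18 with sh1319 alone and 0.07 with sh1209 alone (limma, adjusted p = 9.9e-04 and 0.83). The count of 3 was 1 with median scaling, where 7.58% of all probes passed. At PTK2 probe 450253 the difference between the lines, MIA PaCa-2 minus Capan-1, was -1.17 (limma, adjusted p = 2.1e-04), and at probe 2680750 it was 0.47 (limma, adjusted p = 0.15). The part of PTK2 in these differences was not tested.

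Other genes of the pathway were counted in 5 lists, in the comparison averaged over both hairpins and lines, where, as given above, 12.5% of all tested probes rose and 12.7% fell (17.5% passed with median scaling). Of the remaining ERBB receptors and ligands, 4 of 8 genes were tested (BTC, EGF, NRG3 and NRG4, 1 probe each) and 0 of the 4 probes passed. In each of the 4 hairpin and line pairs 0 passed as well, where 18%, 24.3%, 16.8% and 13.7% of all probes did, in the order given above. With median scaling 2 of the 4 rose with sh1319 in Capan-1, where 9.38% of all probes passed. Between the hairpins in Capan-1, 2 of the 4 differed, both higher with sh1319, against 11.3% of all probes (1 and 5.03% with median scaling). Between the lines with shCtrl 1 of the 4 differed, against 42.1% of all tested probes. This was NRG4, a neuregulin that binds ERBB4, 2.27 higher on the log2 scale in Capan-1 (limma, adjusted p = 1.2e-07). Of 10 probes of the sheddases and their partners, 3 rose and 0 fell, against 25.2% of all tested probes that passed, with a list median of 0.20 against 0.00 for all tested probes. With median scaling 4 rose and 0 fell. RHBDF2, an inactive rhomboid that helps bring the sheddase ADAM17 to the cell surface, rose at 2 of its 3 probes by 0.65 and 0.58 (limma, adjusted p = 2.5e-04 and 1.2e-04). ADAM10, a sheddase of several ERBB ligands, rose at 1 probe by 0.36 (limma, adjusted p = 0.041).

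Of 17 adaptor probes, 1 rose and 5 fell, against 12.5% and 12.7% of all tested probes, with a median of -0.18. GRB2, which couples the receptors to ERK signaling, fell by 0.56 at probe 7380725 (limma, adjusted p = 0.0021), and PIK3R1 (2 probes) and GRB7 fell by 0.34 to 0.42, while GAB2 rose by 0.41. With median scaling, where 17.5% of all probes passed, 1 adaptor probe rose and 0 fell. Of 17 probes of proteins that restrain the receptors or carry them into the cell, 4 rose and 3 fell, against the same 12.5% and 12.7%, with a median of -0.04. PTPN1, a phosphatase, rose by 0.68 (limma, adjusted p = 2.7e-05) and the membrane protein LRIG1 rose by 0.35 and 0.33 at its 2 probes. CBL, a ubiquitin ligase that marks EGFR for degradation, fell by 0.55 (limma, adjusted p = 4.3e-04). PTPN1 rose with both hairpins in MIA PaCa-2 (0.72 and 1.84) and had log2 changes of 0.11 and 0.03 in Capan-1, whereas LRIG1 probe 2450367 rose with both hairpins in Capan-1 (0.64 and 0.62) and had changes of -0.02 and 0.14 in MIA PaCa-2. With median scaling 4 of these probes rose and 1 fell.

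Of 21 probes of genes that ERK signaling is known to induce, 1 rose and 10 fell, against 12.5% and 12.7% of all tested probes, with a median of -0.22. With median scaling, where 17.5% of all probes passed, 1 rose and 5 fell. FOSL1, an AP-1 transcription factor subunit, fell by 1.24 (limma, adjusted p = 3.4e-06), IER3 fell by 1.05 (limma, adjusted p = 2.3e-06) and the ERK phosphatase DUSP6 fell by 0.68 at probe 5260288 (limma, adjusted p = 8.5e-04). PHLDA1 fell by 0.68 and SPRY4 by 0.48, while DUSP5, another ERK phosphatase, rose by 0.89 (limma, adjusted p = 2.0e-05). The counts by pair were 1 higher and 6 lower with sh1209 in MIA PaCa-2, 3 and 13 with sh1319 in the same line, 2 and 5 with sh1209 in Capan-1, and 0 and 3 with sh1319 in Capan-1, where 18%, 24.3%, 16.8% and 13.7% of all probes passed in this order. With median scaling they were 1 and 6, 2 and 10, 2 and 2, and 1 and 2, where 9.27%, 15.9%, 10.2% and 9.38% of all probes passed. The change differed between the lines for 11 of the 21 probes, and for 14.4% of all probes (10 of the 21 and 7.58% with median scaling). FOSL1 fell in all 4 pairs, with log2 changes of -1.06, -2.51, -0.52 and -0.86 in this order. In MIA PaCa-2, IER3 fell by 2.29 with sh1209 and by 1.65 with sh1319. It rose by 1.06 with sh1209 in Capan-1 and fell by 1.31 with sh1319 in Capan-1. These lists were described by their counts and medians and not tested as sets.

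**Figure D4:**
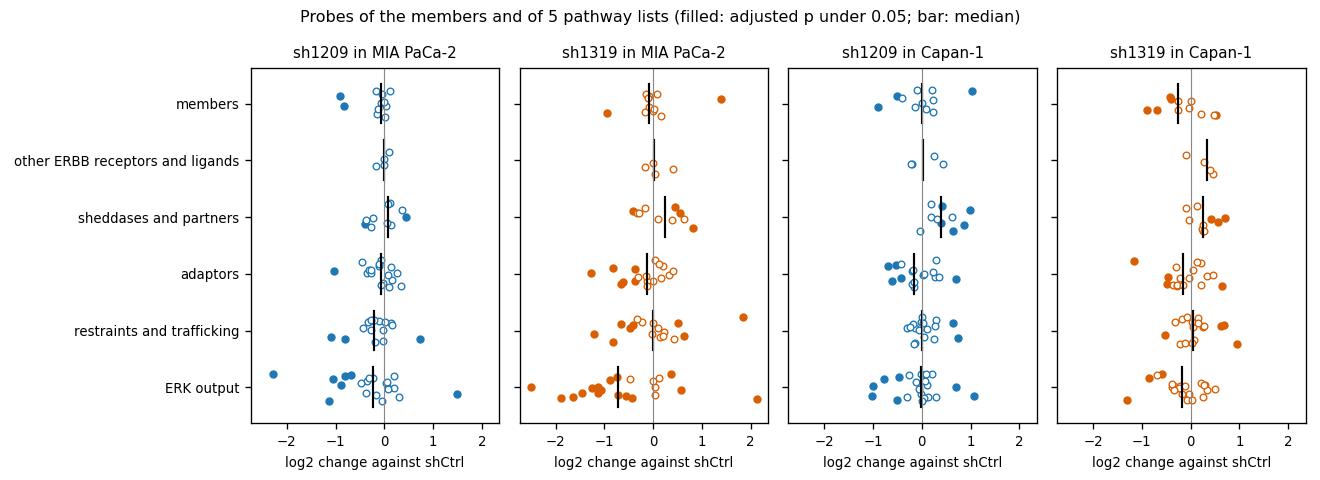
Log2 change against shCtrl (x axis) of the tested probes of the members and of the 5 pathway lists (y axis), in 1 panel for each hairpin and cell line. Each point is a probe (mean of 2 arrays minus mean of 2 shCtrl arrays), filled at an adjusted p under 0.05, and the bar is the list median. With sh1319 in MIA PaCa-2, 13 of the 21 ERK output probes fell and 3 rose, with a median of -0.73, where 24.3% of all tested probes passed. In the other panels 3 to 6 of these probes fell.

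The probes most like each member over the 12 arrays, after the mean of each line was subtracted, were found by Pearson's r for the member probe with the highest mean signal. For EGFR these were SC4MOL (now MSMO1, a sterol biosynthesis enzyme) at 0.99, C3ORF52 at 0.99 and KIAA1598 (now SHTN1) at 0.98. For EREG they were TFB1M at 0.98, C6ORF150 (now CGAS, a sensor of cytosolic DNA) at 0.96 and BOLA1 at 0.94. For HBEGF they were PARL at 0.95 and SLC20A2 and FAM20C at 0.93, and for TGFA they were GPR110 (now ADGRF1) at 0.96 and C12ORF36 at 0.95. For ERRFI1 they were STK39, QSOX2 and RAB8B at 0.95, for ERBB2 PIWIL4 at 0.95 and SEC16A and CABLES2 at 0.92, and for ERBB3 LOC728820 at 0.95, AP2M1 at 0.94 and LOC442232 at 0.93. These values are the highest among 24207 probes over 12 arrays of 6 groups, so they describe a likeness in these arrays. In MIA PaCa-2 the TGFA probe was detected in 0 and the ERBB3 probe in 1 of 6 arrays. For these members the MIA PaCa-2 part of r is thus mostly background signal.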

How the data were processed

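For 12 Illumina HumanHT-12 v4 arrays, the authors deposited raw linear intensity values and a detection p-value for every probe, neither normalized nor background-subtracted. The submitters' processing notes name GenomeStudio 2011.1. A genome build is not given in the sources used here. The deposited table had 47320 rows, of which 92 spike-in controls were left out after background correction, and 28 unnamed columns with no values. Background was corrected with limma's nec function (normexp from the detection p-values, offset 16, which understates changes of dim probes), and values were quantile-normalized and put on the log2 scale. A probe was tested if 2 or more arrays gave it a detection p under 0.05, which left 24207 of 47228. The fit was made with limma 3.58.1 in R 4.3.3 on 6 group means (6 residual degrees of freedom), with Benjamini-Hochberg adjustment within each comparison over all tested probes. The lowest intensity was 66.6, and 2 arrays per group limit the precision. With log2 changes of 1.5 planted in 200 of 24207 simulated probes, the comparison averaged over hairpins and lines recovered 100% with 10 false calls, and that of sh1209 in MIA PaCa-2 recovered 100% with 14. The simulated noise was normal and independent. Every member change against shCtrl was smaller than the planted size (the largest was 1.40), so recovery at the sizes reported here was not measured.

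Probes were taken as members by the gene name in the table, and different probes of a gene were kept apart. The text names every member probe, PTK2, at most 6 genes per pathway list among those past the threshold in the averaged comparison, and the 3 genes nearest to each member, except 2 genes that are not reported here. The members and lists were chosen with earlier results of these data known. NRG4, BTC, EGF, NRG3 and the values by pair of PTPN1, LRIG1, FOSL1 and IER3 were chosen after their values were seen. RefSeq (GRCh38.p14) upstream windows matched 7 of the 8 genes. Alternatives were no background correction, an offset of 50, median scaling, no filter, a stricter filter (p under 0.01 in at least 4 arrays), the replicate number as a block, array weights, 1 cell line alone, replicates averaged, the plain test that the methods name, a minimum log2 change of 1, and each array left out in turn, where the lone array of a group is assumed to vary like the others.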

Additional observations from a re-analysis of the deposited data

Results flagged for a closer look

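For 3 of the 11 member probes the test of the difference between the cell lines passed for the mean change over both FAK hairpins (MIA PaCa-2 minus Capan-1, limma). Of all tested probes 14.4% passed. HBEGF 1820594 differed by -1.65 (limma, adjusted p = 1.7e-04), with a mean change of 0.76 in Capan-1 against -0.89 in MIA PaCa-2. EREG 610170 differed by 0.91, with a mean change of -0.90 in Capan-1 (limma, adjusted p = 0.013). EGFR 1050671 differed by 0.63, with a mean change of 0.66 in MIA PaCa-2 against 0.04 in Capan-1 (limma, adjusted p = 0.017). In MIA PaCa-2 its log2 change was 1.40 with sh1319 and -0.07 with sh1209. With sh1209 alone its difference between the lines was 0.07 (limma, adjusted p = 0.83). With median scaling HBEGF still passed, while EREG (0.83, limma, adjusted p = 0.058) and EGFR (0.44, limma, adjusted p = 0.40) did not. Of all tested probes 7.58% passed with that scaling. With the replicates of a group averaged, and both hairpins of a line taken as its replicates, 0 member probes passed. The change of PTK2 with the hairpins also differed between the lines at probe 450253 (-1.17, limma, adjusted p = 2.1e-04). At probe 2680750 it did not differ detectably (0.47, limma, adjusted p = 0.15). The part of PTK2 in the differences of the members was not tested.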

How the results depend on the processing

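Of 670 values recomputed for single member probes that had passed, 580 kept their direction and their side of the threshold, 90 kept the direction but no longer passed, and 0 reversed. Many of these could not reverse. The filters, the block, the array weights and leaving out an array outside the comparison gave the same log2 change, and only the p-value could move. The count of 0 is therefore no measure of how stable the directions are. With median scaling the number of the 11 member probes past the threshold was 1 in place of 3 averaged over hairpins and lines, 2 in place of 5 for sh1319 in Capan-1, 1 in place of 3 for the difference between the lines, and 0 in place of 5 for sh1319 against sh1209 in Capan-1 (limma, where 6 had an unadjusted p under 0.05). Of all tested probes 17.5%, 9.38%, 7.58% and 5.03% passed with that scaling, in this order. The number was 2 in place of 3 for sh1209 in Capan-1 (10.2% of all tested probes) and 8 in place of 9 for Capan-1 against MIA PaCa-2 with shCtrl. The 2 that passed with median scaling for sh1319 in Capan-1 were EREG, which was among the 5, and HBEGF, which was not. In the fit of Capan-1 alone the number of member probes past the threshold was 2 for sh1319. With replicates averaged, it was 0 averaged over hairpins and lines and 0 for the difference between the lines (limma, where 1 and 2 had an unadjusted p under 0.05), as it was over all 24207 tested probes. That fit took both hairpins of a line as its replicates. The methods' plain test gave 2 for sh1319 in Capan-1 at an unadjusted p under 0.05 and 2 in each of the other 3 pairs, and 0 in each of the 4 pairs after Benjamini-Hochberg adjustment. Over all 24207 probes it gave unadjusted counts with sh1209 and sh1319 of 4613 and 5646 for MIA PaCa-2 arrays and of 4935 and 4393 for Capan-1 arrays, and 1, 4, 0 and 0 after adjustment. With a minimum log2 change of 1 it was 0 averaged over hairpins and lines, in MIA PaCa-2 it was 0 with sh1209 and 1 with sh1319, in Capan-1 it was 1 with sh1209 and 0 with sh1319, it was 1 for the difference between the lines, and 1 and 0 for sh1319 against sh1209 in MIA PaCa-2 and Capan-1. The share of all tested probes is not given here for the fit of Capan-1 alone, the minimum change or the arrays left out. The counts of members there therefore have nothing to be set against. The causes of these moves were not tested. With 1 array left out the counts were 2 to 5 averaged over hairpins and lines, 2 for each hairpin in MIA PaCa-2, in Capan-1 2 to 3 with sh1209 and 0 to 6 with sh1319, 1 to 3 for the difference between the lines (1 without shCtrl replicate 2 of MIA PaCa-2 or shCtrl replicate 1 of Capan-1), 7 to 9 for Capan-1 against MIA PaCa-2 with shCtrl, and 2 and 2 to 4 for sh1319 against sh1209 in MIA PaCa-2 and Capan-1.

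Replicate numbers were shared between groups. Deviations of same-numbered arrays correlated at -0.06 to 0.16 over 15 pairs of groups, 1 of them above 0.1, so these deviations had little in common. Same-numbered arrays did share a part of the chip, with replicate 1 at positions A to F and replicate 2 at positions G to L. In every group the median intensity was higher in replicate 2 than in replicate 1. The low correlations therefore do not show that the arrays share only a number. With the replicate number as a block, EREG between the lines with shCtrl (-0.46, limma, adjusted p = 0.062) and HBEGF between the hairpins in Capan-1 (-0.54, limma, adjusted p = 0.063) did not pass, and the counts there were 8 and 4. The counts were 3, 2, 2, 3, 5, 3 and 2 in the other comparisons, as without the block. Probes near the background, such as EGFR 6330307 and ERBB3 4260482, and those detected in 0 arrays, AREG among them, limit what could be measured. Probes with called changes also had groups with low, though detected, signal. In MIA PaCa-2 with sh1209, EGFR 1050671 lay between 94.8 and 107.5 and HBEGF between 102.5 and 118.3. In Capan-1 with sh1209, EREG lay between 108.3 and 121.9. The size of these changes therefore depends on the background correction.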
